A study of Drosophila melanogaster with 8 samples.

Results

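The homeobox genes examined here are 53 genes of Drosophila melanogaster that encode transcription factors with a homeodomain. They were chosen by name, and their windows are their RefSeq spans in Release 6 of the genome plus 2 kb on each side. All 53 were found among the 13911 protein-coding genes on the 6 chromosome arms compared. Their windows hold 54 of the 9086 regions obtained by merging the peaks of all 8 libraries. CUT&RUN was used, a method that tethers a nuclease to an antibody on chromatin and sequences the released fragments. In the Zelda-GFP larvae, GFP was fused to the transcription factor Zelda at its own locus. The wild type larvae were w1118 and carried no GFP. The same anti-GFP antibody was used on wing discs of both genotypes, so any peak in a wild type library arose without its target. The groups were Zelda-GFP damaged, wild type damaged, Zelda-GFP undamaged and wild type undamaged, with 2 libraries each, and damaged discs were taken 2 days after damage. How the damage was made, and how many larvae went into a library, are not given in the sources used here. The labels do not say whether replicate libraries came from separate larvae, so the spread between them may be technical. Peak lists hold no expression values, so the tissue label was not checked.

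Zelda is a zinc finger protein best known as the pioneer factor that opens chromatin at enhancers of the early embryo. Homeodomain proteins bind DNA through a short conserved domain and assign identities to body segments, appendages, muscles and neurons. The Hox genes among them are arranged in the Antennapedia and bithorax complexes and set segment identity along the body axis. Many homeobox genes are held silent by Polycomb proteins in tissues that do not use them, and others, such as the Iroquois genes, pattern the wing disc itself.

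A list holds only peaks past the caller's threshold, so a library without a peak at a gene is one where none passed. The lists held 2663 to 4946 peaks, 1698 to 3908 of them on the compared arms. The lowest fold enrichment listed on the arms was between 1.20 and 1.34, depending on the library, where fold is the authors' linear ratio of summit pileup over expected local coverage. Background coverage, recovered from fold and p-value, stood in for depth and ranged from 32.6 to 52.3 fragments per base. Of the regions called in either wild type damaged library 32.7% were called in both, whereas wild type damaged replicate 1 shared 45.7% with wild type undamaged replicate 1, a library of another condition. Zelda-GFP undamaged replicate 2 shared 45.2% with the same undamaged wild type library and 44.3% with its own replicate. Wild type undamaged replicate 1 shared only 31.2% with its own replicate. It, wild type damaged replicate 1 and Zelda-GFP undamaged replicate 2 called the fewest regions (1501, 2071 and 1436). Whether list length bears on this sharing was not tested. Whether the labels of wild type damaged replicate 1 and wild type undamaged replicate 1 are right could not be checked from the peak lists. Every wild type class and mean below depends on them. The main counts are therefore also given without wild type damaged replicate 1.

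The first question was how often each library had a peak at a homeobox gene. Zelda-GFP damaged replicates 1 and 2 had a peak at 14 and 17 of the 53 genes (26.4% and 32.1%), where 21.1% and 23.6% of all protein-coding genes had one. Wild type damaged replicate 1 had a peak at 0 of the 53, although 7.34% of all genes had one, and replicate 2 at 8 (15.1%), against 30.8% of all genes. The 2 Zelda-GFP damaged libraries thus lay above both wild type damaged ones at these genes, although wild type damaged replicate 2 had a peak at more genes overall than any other library. Zelda-GFP undamaged replicates 1 and 2 had peaks at 3 and 1 homeobox genes, with 11.2% and 4.03% of all genes. Wild type undamaged replicates 1 and 2 had peaks at 1 and 13, with 4.10% and 14.7% of all genes. The undamaged groups overlapped.

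**Figure D1:**
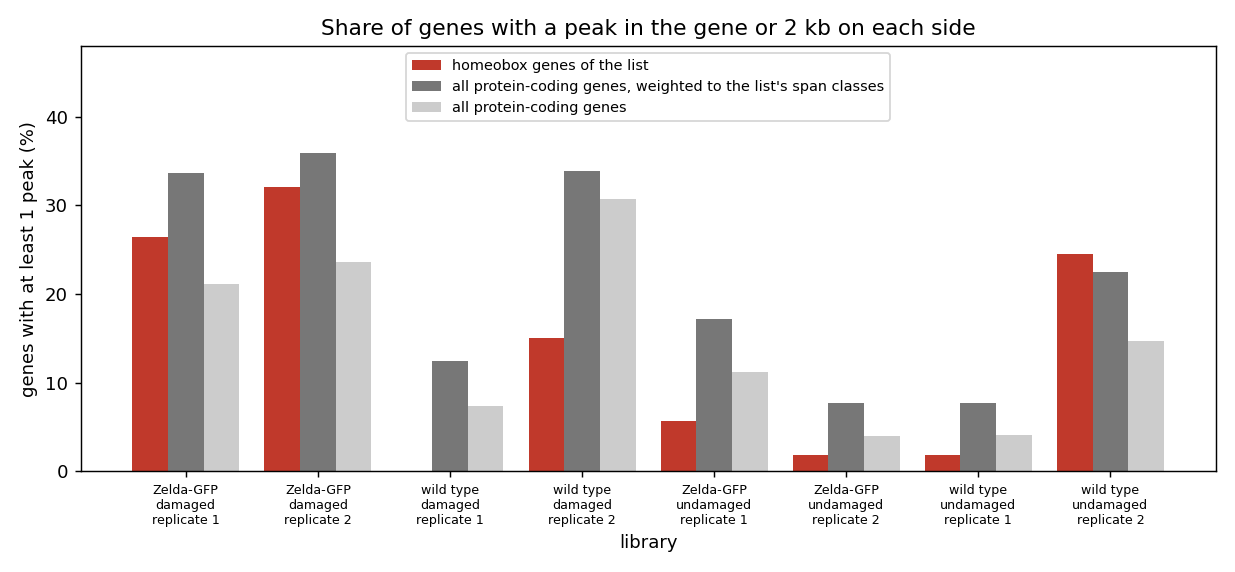
Share of genes (y axis, %) with at least 1 peak in the gene or 2 kb on each side, for each library (x axis). Bars stand for the 53 homeobox genes, for all protein-coding genes weighted to the span classes of the 53, and for all protein-coding genes. The homeobox bar exceeds the span-weighted bar only in wild type undamaged replicate 2, at 24.5% against 22.5%.

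The mean number of homeobox genes with a peak was 15.5 ± 2.12 in Zelda-GFP damaged discs and 4 ± 5.66 in wild type damaged discs (SD, n = 2 each). It was 2 ± 1.41 in Zelda-GFP undamaged discs and 7 ± 8.49 in wild type undamaged discs (SD, n = 2 each). The difference, Zelda-GFP minus wild type, was 11.5 genes in damaged discs and -5 in undamaged discs. Over all libraries the Zelda-GFP mean was 8.75 and the wild type mean 5.5, a difference of 3.25 genes that averages these opposite signs. It is smaller than the SD of 7.93 and 6.14 within the genotypes (n = 4 each). Those SD also hold the gap between damaged and undamaged discs. The difference over all libraries depended on single libraries. It ran from 0.50 without Zelda-GFP damaged replicate 2 to 5.83 without Zelda-GFP undamaged replicate 2. Leaving a library out also unbalances damaged and undamaged discs. No p-value is given for a count over genes that were chosen by name with earlier results known. Homeobox genes are long, with a median span of 12.2 kb against 2.16 kb for all protein-coding genes, and longer genes catch more peaks. Weighted to the span classes of the 53, the share of all genes with a peak was 33.6% and 35.9% in the Zelda-GFP damaged libraries and 12.5% and 33.9% in the wild type damaged ones. On that scale a smaller share of the homeobox genes than of genes of like span had a peak in 7 of the 8 libraries.

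Across all 8 libraries, 25 of the 53 genes (47.2%) had at least 1 region, against 49.9% of all protein-coding genes and 61.2% of them after weighting by span. The 28 genes with no region in any library included the bithorax genes abd-A and Abd-B, and Dfd of the Antennapedia complex. They also included ftz, zen and bcd, which lie in that complex but act in the early embryo. Of the limb genes they included B-H1, B-H2 and Lim1, and of the eye and head genes oc, Rx and toy. The remaining ones without a region were eve, cad and prd of segmentation, slou, bap, lbe and lbl of the mesoderm group, unpg, ind, vnd, bsh, onecut, acj6 and repo of the nervous system, Ptx1 and zfh1. Their spans ran from 1.13 to 49.3 kb, and Lim1 was the longest. No region at a homeobox gene was called in all 8 libraries, where 2.20% of all genes had such a region. This was bound to follow, because wild type damaged replicate 1 has no peak at any of the 53.

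**Figure D2:**
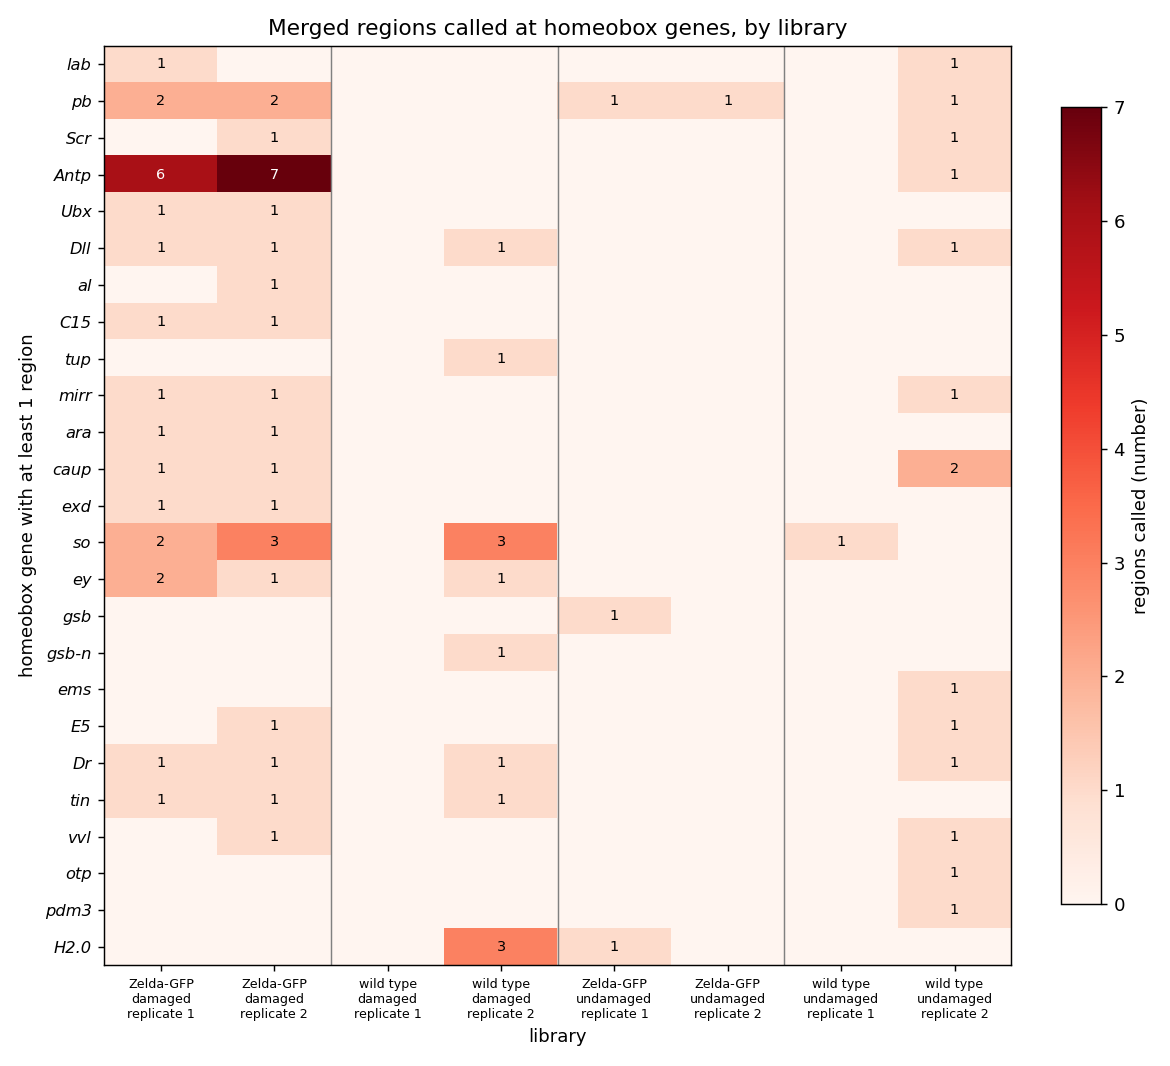
Number of merged regions called (colour and digits) at each of the 25 homeobox genes with at least 1 region (rows), in each of the 8 libraries (columns, replicates side by side). Antp has 6 and 7 regions in the Zelda-GFP damaged libraries, and wild type damaged replicate 1 has none at any of these genes.

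The next comparison asked which homeobox genes had regions that depended on the tag in damaged discs, that is, regions called in both Zelda-GFP damaged libraries and in neither wild type damaged one. Such regions lay at 8 of the 53 genes, Antp, pb, ara, caup, mirr, exd, C15 and so, and there were 13 of them. The share, 15.1%, compares with 9.79% of all protein-coding genes and with 17.5% of them after weighting by span, so it was not above that of genes of like span. Within span classes the share was 5 of 13 for homeobox genes of 10 to 20 kb, against 21.0% of all genes of that span, and 1 of 13 for those of 20 to 50 kb, against 24.0%. The opposite class, called in both wild type damaged and neither Zelda-GFP damaged library, held none of the 53 and 1.68% of all genes. That 0 was bound to follow, because wild type damaged replicate 1 has no peak at any of the 53. With wild type damaged replicate 2 alone, an alternative added after the data were seen, the opposite class held 4 homeobox genes and 23.6% of all genes. An exact permutation test of 2 against 2 libraries cannot go below p = 0.333, so no p-value is given for these classes. The count of 8 was the same without wild type damaged replicate 1. This too was bound to follow, because that library has no peak at any of the 53 and so excludes none of their regions. The count was 4 with lists of equal length, where 5.35% of all genes had such a region, and 5 with 100 bp summit windows (7.03%). The count was 14 without Zelda-GFP damaged replicate 1, which loosens the criterion (16.7%). The share of all genes moved in the same direction as the count in each of these settings.

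**Figure D3:**
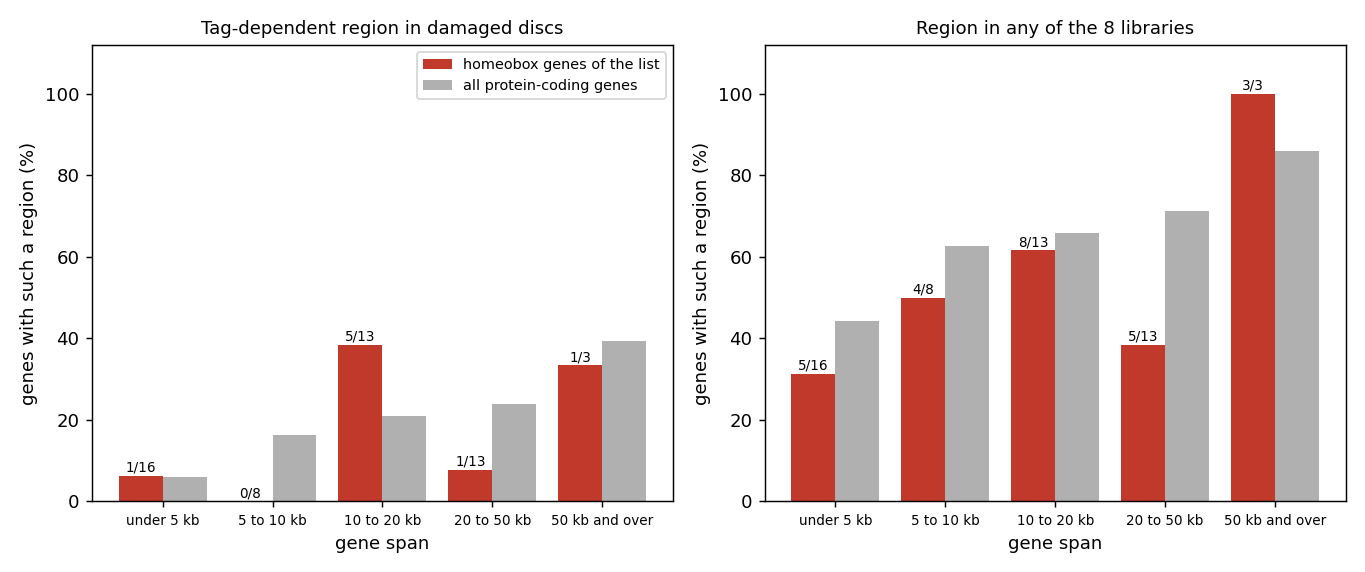
Share of genes (y axis, %) with a tag-dependent region in damaged discs (left panel) or with a region in any of the 8 libraries (right panel), by gene span (x axis). Homeobox genes stand left of all protein-coding genes in each pair, and the fraction above a bar gives the homeobox genes hit over those in the class. In the class of 20 to 50 kb, 5 of 13 homeobox genes had any region, against 71.2% of all genes.

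Replicates of a group shared regions at homeobox genes to different degrees. Of the 32 regions at homeobox genes called in either Zelda-GFP damaged library, 16 were called in both (50%), beside 53.5% over all regions. Of the 12 regions called in either wild type damaged library none was called in both, where the share over all regions was 32.7%. This 0 was fixed, because wild type damaged replicate 1 called no region at these genes. Of the 3 in either Zelda-GFP undamaged library 1 was called in both, and of the 15 in either wild type undamaged library none was, where the shares over all regions were 44.3% and 31.2%. Wild type undamaged replicate 1 called only 1 of the 15, so no more than 1 could have been shared. Accordingly, 35 of the 54 regions (64.8%) were called in 1 library only, against 53.1% of all regions. Of these, 5 and 9 came from the Zelda-GFP damaged libraries and 0 and 6 from the wild type damaged ones. The undamaged libraries gave 2 and 0 with the tag, and 0 and 13 in wild type.

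Among the Hox genes, 2 of 8 (25.0%) had a tag-dependent region in damaged discs, beside 9.79% of all genes and 27.1% of them after weighting to the spans of the 8. Of the 7 such regions 5 were at Antp. Antp specifies the second thoracic segment, which bears the wing, and with 103 kb (3R 6896253 to 6999228) it was the longest gene of the list. It had 5 tag-dependent regions and 9 regions in all. The other 4 were each called in a single library, 3 of them in Zelda-GFP damaged discs and 1 in wild type undamaged replicate 2. The strongest region, at 3R 6935411 to 6936461 inside the gene, had a fold of 2.82 in Zelda-GFP damaged replicate 1 and 3.24 in replicate 2, and no peak in the other 6 libraries. The pileup there was 121 and 134 fragments over expected coverages of 42.3 and 40.7. The summits of the 2 replicates lay 3 bp apart.

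The region at 3R 6922530 to 6923877 had folds of 2.26 and 2.38 in the Zelda-GFP damaged libraries, with summits 74 bp apart. Both of these regions also overlap CG46458, a gene inside the Antp span. The region at 3R 6968783 to 6969223 had folds of 2.26 and 2.41, and the one at 3R 6987589 to 6988287 had 1.77 and 1.95. The last, at 3R 7000800 to 7001199, lay 1572 bp beyond the higher-coordinate end of Antp, overlapped a long noncoding RNA gene (lncRNA:CR45899) and had folds of 2.46 and 2.75. None of the 5 had a peak in a wild type or an undamaged library. Antp kept 4 or 5 tag-dependent regions under each of 7 alternative settings. Per length, Antp had 4.67 such regions per 100 kb of window, the lowest density of the 8 genes with one, of which pb had 5.23, caup 6.19 and exd 12.4 per 100 kb. All 53 windows together held 11.5 per Mb, against 9.77 per Mb over the windows of all protein-coding genes, and 7.82 per Mb without Antp.

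At pb, which specifies mouthparts, a region was also called in undamaged discs. The region at 3R 6738054 to 6738875, inside the gene, was called in all 4 Zelda-GFP libraries and in no wild type library. Its folds were 1.64 and 1.72 in Zelda-GFP damaged discs and 2.04 and 1.93 in Zelda-GFP undamaged discs. The summits of the Zelda-GFP damaged replicates lay 227 bp apart. Ranked by fold within each list, these were at percentiles 5.10 and 10.6 of the damaged lists, and at 55.6 and 28.1 of the undamaged lists. A second region, at 3R 6741824 to 6742501, spanned the higher-coordinate end of pb, with folds of 2.31 and 3.02 in Zelda-GFP damaged discs and no peak in the other 6 libraries. No tag-dependent damaged region was left at pb in 1 of the 7 alternative settings.

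The other Hox genes had no tag-dependent region. At lab, a head gene, there was 1 peak in Zelda-GFP damaged replicate 1 with a fold of 2.15 and 1 in wild type undamaged replicate 2 with 1.79, at separate places. Scr had 1 peak in Zelda-GFP damaged replicate 2 and 1 in wild type undamaged replicate 2, with folds of 2.04 and 2.03, beside 7SLRNA:CR32864. Ubx, which specifies the haltere in place of the wing, spans 77.8 kb and had 2 regions. Each rested on 1 library, with a fold of 1.74 in Zelda-GFP damaged replicate 1 and 2.15 in replicate 2, at different places. Per 100 kb of window, all regions numbered 8.41 at Antp and 2.44 at Ubx, counting those called in a single library. All homeobox windows together held 47.8 regions per Mb, and the windows of all protein-coding genes 64.1 per Mb. The difference between Antp and Ubx was not tested.

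**Figure D4:**
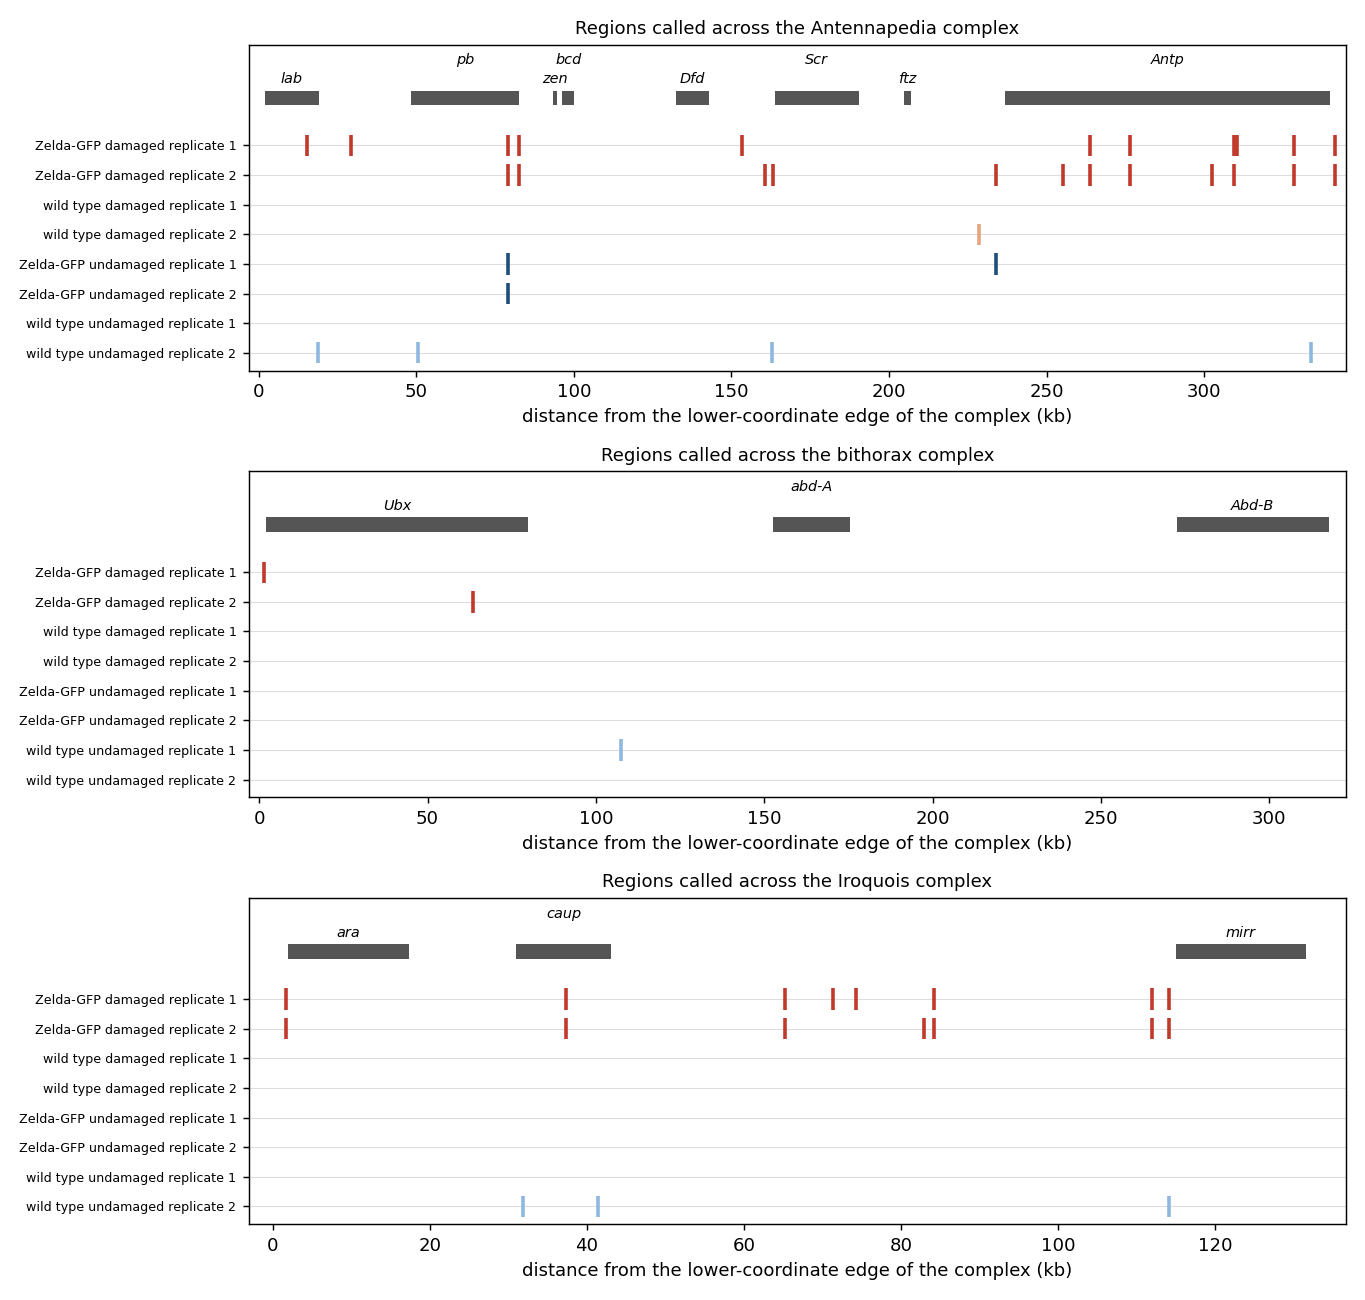
Regions called across the Antennapedia, bithorax and Iroquois complexes, with distance from the lower-coordinate edge of each complex on the x axis (kb) and the 8 libraries as rows. Dark bars are the homeobox genes of the list, and each tick marks the midpoint of a region called in that library. In the Iroquois complex, the Zelda-GFP damaged libraries have 8 and 7 regions, the wild type damaged libraries none and wild type undamaged replicate 2 has 3.

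The limb and wing-disc genes had tag-dependent regions in damaged discs at 5 of 11 members (45.5%), against 9.79% of all genes and 19.1% of them after weighting to the spans of the 11. The role groups were drawn up with earlier results known and 3 of the 5 genes are neighbours in 1 complex, so no test is given and nothing is read from the difference. The Iroquois genes ara, caup and mirr, which pattern the notum and the wing veins, each had 1. The caup region lay inside the gene at 3L 12615527 to 12616488, with a fold of 3.10 and a pileup of 120 fragments in each Zelda-GFP damaged library, and no peak in the other 6. Its summits were 9 bp apart, and it was found under each of 7 alternative settings. Elsewhere in caup, wild type undamaged replicate 2 alone had 2 regions, with folds of 1.81 and 1.71. At ara, the region at 3L 12580129 to 12580633 ended 39 bp before the lower-coordinate end of the gene, with folds of 1.92 and 2.51 in Zelda-GFP damaged discs, summits 219 bp apart and no peak elsewhere. That at mirr, 3L 12692238 to 12693394, ended 245 bp before the gene, with folds of 2.35 and 3.28 in Zelda-GFP damaged discs and summits 497 bp apart. It also had a peak with a fold of 1.78 in wild type undamaged replicate 2, whereas the other 5 libraries had none. The ara region was lost in 4 of the 7 alternative settings and the mirr region in 2.

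The gene exd encodes a cofactor that binds DNA together with Hox proteins and works in the wing hinge. Its region at X 15992072 to 15992926 spanned the lower-coordinate end, with folds of 2.59 and 2.13 in Zelda-GFP damaged discs, summits 219 bp apart and no peak elsewhere. The genes eIF5 and CG46312 also lie within 500 bp of it. C15, which acts with al at the tip of the leg, had a weak region, at 3R 21499650 to 21500164 over its lower-coordinate end. Its folds were 1.74 and 1.59 in Zelda-GFP damaged discs, at percentiles 13.0 and 2.17 of those lists. In replicate 2 this was the lowest fold of the 13 tag-dependent regions, whereas in replicate 1 a pb region was lower, at 1.64. The exd and C15 regions were each lost in 3 of the 7 alternative settings.

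Distal-less (Dll), which is needed for limb outgrowth and at the wing margin, had a region over its lower-coordinate end at 2R 24814015 to 24814827 in both Zelda-GFP damaged libraries. The folds there were 2.41 and 2.43. Wild type damaged replicate 2 also had a peak in this region, with a fold of 2.42, so the region fell outside the tag-dependent class. Wild type damaged replicate 1 had none there. The summits of the Zelda-GFP damaged replicates lay 557 bp apart, at 24814138 and 24814695, and that of the wild type peak was at 24814268. At al, a fold of 1.90 was listed in Zelda-GFP damaged replicate 2 alone, and at tup, a notum gene, a fold of 2.10 in wild type damaged replicate 2 alone, where the region overlapped CG10602 and mRpL13.

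Of the 5 eye and head genes, only so had a tag-dependent region (20%). The share of all genes was 9.79%, and 22.8% after weighting to the spans of the 5. The gene so is required for eye formation and had 5 regions in all. The tag-dependent one, at 2R 7429089 to 7429907 inside the gene, had folds of 2.18 and 2.12 in Zelda-GFP damaged discs and overlapped lncRNA:CR44203. No tag-dependent region was left at so in 1 of the 7 alternative settings. A stronger region, at 2R 7418755 to 7419192, ended 158 bp before the gene, with folds of 2.97 and 3.18 in Zelda-GFP damaged discs, and wild type damaged replicate 2 had a fold of 2.00 there. The region at 2R 7435565 to 7436890 was called only in wild type undamaged replicate 1 (fold 2.11) and wild type damaged replicate 2 (1.76). Single-library regions lay at 2R 7419428 to 7419830 in wild type damaged replicate 2 (1.61) and at 2R 7430479 to 7430765 in Zelda-GFP damaged replicate 2 (2.27). The master eye gene ey had 3 regions, none called in both Zelda-GFP damaged libraries, with folds between 1.76 and 2.23.

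None of the 7 segmentation genes, 6 NK and mesoderm genes, 10 nervous system genes or 3 others had a tag-dependent region. After weighting to the spans of each group, the share of all genes with one was 11.7%, 12.4%, 15.2% and 20.4% in that order. The heart gene tin came closest. A region 1681 bp from its lower-coordinate end, at 3R 21376491 to 21377296, had folds of 1.97 and 2.66 in Zelda-GFP damaged discs and of 1.83 in wild type damaged replicate 2. This region overlapped mod(mdg4), the neighbouring gene. Dr, which acts in dorsal muscle and neural patterning, had 3 regions with folds of 1.57 to 1.92, of which 1 was shared by Zelda-GFP damaged replicate 2 and wild type damaged replicate 2. H2.0 had 4 regions, each in 1 library, with a fold of 1.46 in Zelda-GFP undamaged replicate 1 and of 1.59, 1.66 and 1.81 in wild type damaged replicate 2. The POU homeobox genes vvl and pdm3, the neural gene otp, and gsb, gsb-n, ems and E5 had 1 or 2 regions each, each called in a single library.

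The folds of the 13 tag-dependent regions at homeobox genes lay within those of their class. Their median fold was 2.26 and 2.41 in Zelda-GFP damaged replicates 1 and 2, beside 2.38 and 2.50 over all 1222 tag-dependent damaged regions. The highest folds were 3.10 and 3.28, whereas the whole class reached 8.23 and 9.17. The median distance between the summits of the 2 replicates was 43 bp (3 to 497), beside 55 bp for the class, and the median width was 819 bp, beside 793.5 bp. Of the 13, 7 lay inside the gene, 3 spanned an end and 3 lay in the flank. Of all 13, 6 were within 500 bp of an end of a protein-coding gene (46.2%), and 43.8% of the whole class were. The gene table gives no strand, exons or introns, so a start could not be told from a stop.

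**Figure D5:**
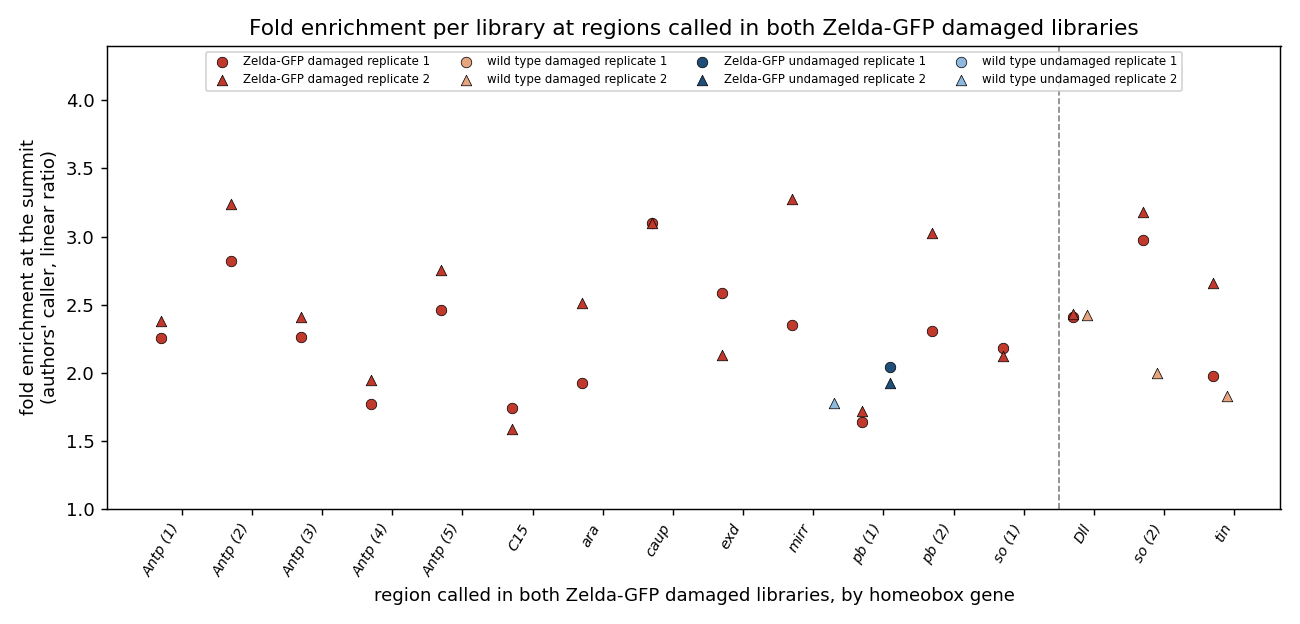
Fold enrichment at the summit (y axis, the authors' linear ratio) in each library with a peak, for the 16 regions at homeobox genes called in both Zelda-GFP damaged libraries (x axis, numbered by position, on each side of the dashed line in turn, where a gene has several). Left of the dashed line are the 13 tag-dependent regions and right of it the 3 regions also called in wild type damaged replicate 2; a library without a point had no peak. Only the first pb region has points in the Zelda-GFP undamaged libraries, at 2.04 and 1.93.

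In undamaged discs, the tag-dependent class held 1 of the 53 genes, pb, with the region called in all 4 Zelda-GFP libraries. The share of all genes was 1.02%. The opposite class, both wild type undamaged and neither Zelda-GFP undamaged library, held none, against 0.582% of all genes. With a fold of at least 2, with windows of 100 bp around the summits, or where a peak had to cover 50% of a region, no homeobox gene was left in the undamaged class. Without Zelda-GFP undamaged replicate 2 there were 3, where the share of all genes was 8.08%. Before controls were considered, 10 homeobox genes had a region called in both Zelda-GFP damaged libraries (15.4% of all genes did) and 1 in both Zelda-GFP undamaged libraries (3.71%). No homeobox gene had one in both wild type damaged libraries (5.31%). This was fixed, because replicate 1 had no peak at any of the 53, and replicate 2 alone had peaks at 8. None had one in both wild type undamaged libraries (3.28%), where replicate 1 had a peak at 1 homeobox gene.

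The damage comparison asked which genes had regions in damaged and not in undamaged discs of the same genotype. Regions called in both Zelda-GFP damaged libraries, in neither Zelda-GFP undamaged library and in no wild type library lay at 7 of the 53 genes (13.2%), where 8.19% of all genes had one, and 15% of them after weighting by span. These were Antp, pb, ara, caup, exd, C15 and so, with 11 regions. The reverse class, undamaged and not damaged, held none (0.237% of all genes). When the controls were ignored, mirr, Dll and tin joined, which made 10 genes or 18.9% (11.3% of all genes, and 19.4% of them after weighting by span), and the reverse class again held none (0.561%). In wild type discs no homeobox gene had a region in both damaged and neither undamaged library (2.27% of all genes), which again follows from the lack of peaks in wild type damaged replicate 1. With replicate 2 alone the count was 8, where 26.8% of all genes had such a region. None had the reverse (0.345%). The first count stayed at 7 when Zelda-GFP undamaged replicate 2 or wild type damaged replicate 1 was left out, and both outcomes were fixed. Wild type damaged replicate 1 has no peak at any of the 53. The only homeobox region of Zelda-GFP undamaged replicate 2, at pb, was also called in Zelda-GFP undamaged replicate 1. The first count was 13 without Zelda-GFP damaged replicate 1 (14.3% of all genes), 11 without replicate 2 (12.8%) and 4 with lists of equal length (5.03%). The reverse class held 2 genes without Zelda-GFP undamaged replicate 2 (4.28% of all genes) and 1 with lists of equal length (0.503%). The difference between the genotypes in their response to damage was not tested, since a count over these genes gets no p-value.

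Each of the 9086 regions was then tested over libraries, 4 Zelda-GFP against 4 wild type, with an exact two-sided permutation test of the share of libraries with a call. With p no lower than 0.0286 and this many regions, an adjusted p under 0.05 was hardly within reach, so its absence says nothing about these regions. No region had an adjusted p under 0.05 (0.00% of regions, Benjamini-Hochberg over all regions), and 108 (1.19%) had an unadjusted p under 0.05. Of these, 62 were called in all 4 Zelda-GFP and no wild type library. The other 46 were called in all 4 wild type and no Zelda-GFP library. Of the 54 regions at homeobox genes 1 was among the 108, the pb region called in all 4 Zelda-GFP libraries, with an exact p of 0.0286, the smallest that 70 labelings allow, and an adjusted p of 1.

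Of the tag-dependent damaged regions counted here, the one farthest from its gene was that 1572 bp beyond Antp. Just outside the 2 kb limit lay regions of the same class 2620 bp from mirr, 3131 bp from H2.0 and 3974 bp from repo, a glial gene. The one near H2.0 had folds of 3.79 and 4.0 in Zelda-GFP damaged replicates 1 and 2, above every tag-dependent region inside the windows. With 5 kb on each side the count was 10 genes, where 14.5% of all genes had such a region, and with gene bodies alone it was 6 (5.84%).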

How the data were processed

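Per the labels, peaks came from CUT&RUN on wing discs with an anti-GFP antibody. The submitters' processing notes name bcl2fastq 2.20, Bowtie2, SAMtools, Picard, deepTools and MACS2, and the build dm6, which is Release 6. Filters and any control in peak calling are not given in the sources used here. The authors deposited 1 peak list per library, with the fold enrichment (a linear ratio), the −log10 p-value and the −log10 q-value of each peak. The deposited score is 10 times the −log10 q-value and was not used; the smallest −log10 q-value was 1.32. The deposited summit offset located summits.

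Peaks on arms 2L, 2R, 3L, 3R, 4 and X sharing at least 1 bp were merged, and a library counted as calling a region when it had a peak there. Whole pileups were recovered from fold and p-value for 99.9% to 100.0% of peaks, within 0.05 fragments. This assumes a pseudocount of 1 on pileup and expected coverage. No 2 lists shared an identical peak. Regions, calls, tests and pileup recovery were tested on simulated data. Genes came from the RefSeq table of Release 6, which has no strand. The members and lists were chosen with earlier results of these data known. By rule, members with a region of a tag-dependent class, of a wild-type-only class or in all 8 libraries were described, with up to 4 regions each. The fifth Antp region, and the values of other members, were added after they had been seen. Alternatives were the flank, summit windows, −log10 q of at least 2, fold of at least 2, lists of equal length (1698 peaks), 50% cover, each library left out and a replicate block. No sequence is shown. Software was Python 3.11.15, pandas 2.3.3, numpy 2.4.6, scipy 1.17.1 and matplotlib 3.10.9.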

Additional observations from a re-analysis of the deposited data

How the results depend on the processing

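Counts of homeobox genes with a tag-dependent region in damaged discs were 6 to 10 under the other settings except windows of 100 bp around the summits (5) and lists of equal length (4), and 8 to 14 with a library left out. In undamaged discs the count of 1 became 0 with the summit windows, with a fold of at least 2 and with 50% of the region covered, and was 1 to 3 with a library left out. The damaged-only Zelda-GFP count of 7 was 4 with lists of equal length, and 7 to 13 with a library left out. The undamaged-only count of 0 was 1 with lists of equal length, and 0 to 2 with a library left out. The cause of these moves was not tested, apart from a left-out library loosening the criterion by construction. The difference in genes hit per library, Zelda-GFP minus wild type, was taken over damaged and undamaged discs together. It was 1.75 to 4.25 under the other settings and 0.50 to 5.83 with a library left out. Replicate numbers did not pair the libraries: deviations of same-numbered libraries had correlations of -0.07 to 0.07 over 6 pairs of groups. With the replicate block, the 36 labelings allow no exact permutation p under 0.0556, the value at the pb region, so its 0 regions past 0.05 say nothing. The wild-type-only damaged count was 0 to 4 with a wild type damaged library left out, and the counts in both wild type damaged libraries and in damaged but not undamaged wild type discs were 0 to 8, the higher values without replicate 1. No library listed a fold under 1.20 on the arms, so weaker enrichment is not seen at this depth.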

Other observations

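A second list of 34 homeobox genes outside the 53 was examined in the same way. Tag-dependent regions in damaged discs lay at 7 of them (20.6%), ct, en, zen2, hth, pros, NK7.1 and zfh2, beside 9.79% of all genes and 18.4% of them after weighting to the spans of the 34. The gene hth, whose product brings the exd protein into the nucleus, had 6, with folds between 2.08 and 2.69 in Zelda-GFP damaged replicate 1 and between 2.36 and 3.35 in replicate 2. None of the 6 had a peak in the other 6 libraries. They were spread over 3R 10528430 to 10617182, and their number per length of window was not worked out. The zen2 region is the one at the end of pb, so it is not a separate observation. Named after their values were seen, inv, en and NK7.1 had a region present in each library of wild type damaged discs and absent from the lists of Zelda-GFP damaged discs, with folds between 1.60 and 1.87. These are 8.82% of the 34, where 1.68% of all genes had such a region. The share of all genes rose with span, to 9.45% at 50 kb and over, and was 2.75% after weighting to the spans of the 53. It was not weighted to the spans of the 34, and nothing is read from the difference. Both en and NK7.1 are thus in the 2 opposite classes, through separate regions.

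The stretches between genes of a complex were counted after the values at the genes had been seen. In the Iroquois complex (3L 12578672 to 12712249), 6 tag-dependent damaged regions were found, of which 3 lay between caup and mirr outside the gene windows. Those at 3L 12643682 to 12644113, 12662598 to 12663158 and 12690286 to 12691019 had folds of 2.33, 1.72 and 2.21 in Zelda-GFP damaged replicate 1 and of 2.59, 2.59 and 2.56 in replicate 2, and no peak elsewhere. The Antennapedia complex (342 kb) had 7 such regions, all in the windows of pb and Antp. The bithorax complex, of similar length (320 kb), had none, and the 3 regions there rested on 1 library each. The NK cluster (182 kb) had 1, at C15, and the 92.7 kb that hold B-H1 and B-H2 had no region in any library. The Iroquois complex spans 134 kb. Over the windows of all protein-coding genes, tag-dependent damaged regions numbered 9.77 per Mb, whereas the complexes also include stretches between genes. Differences between complexes were not tested, and nothing is read from these counts.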
